A study of Mus musculus with 2 samples.

Results

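The JAK and STAT genes were followed through single-cell ATAC-seq of mouse hematopoietic stem cells (HSCs), an assay in which a transposase cuts open chromatin and the sequenced fragments mark where each nucleus is accessible. The set held 9 genes, namely Jak1, Jak2, Jak3, Stat2, Stat3, Stat4, Stat5a, Stat5b and Stat6, of 21755 protein-coding genes on the autosomes and X. The set is defined by gene family. Tyk2 was counted with the rest of the pathway. Young HSCs came from 10-week-old C57BL/6 mice and aged HSCs from 20-month-old C57BL/6 mice. There was 1 library per age. Both were sorted from bone marrow on the same surface markers, as lineage-negative Sca-1+ c-kit+ cells that were CD34-, CD48-, Flt3- and CD150+ and labelled IL-7-, which by the study's methods was stained as the receptor IL-7Rα. No genotype or treatment other than age separated the groups. With 1 library of each age there is no spread between animals, no test was made, and every interval below covers counting error only.

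JAK kinases are bound to the inner parts of cytokine and interferon receptors and are switched on when a ligand brings receptor chains together. They then phosphorylate the receptor and the STAT proteins, which pair, enter the nucleus and bind DNA at short palindromes. In blood cells the erythropoietin receptor signals through Jak2 to Stat5a and Stat5b, the interleukin 6 family signals through gp130 and Jak1 to Stat3, and type I interferon acts through Jak1, Tyk2 and Stat2. SOCS proteins, themselves induced by STATs, damp the signal. In mm10 and GENCODE M21 the kinase genes lie as Jak1 at chr4:101152367-101265282, Jak2 at chr19:29251828-29313080 and Jak3 at chr8:71676296-71690575. The STAT genes lie as Stat2 at chr10:128270559-128292849, Stat6 at chr10:127642986-127660957, Stat4 at chr1:51987148-52107189, Stat5b at chr11:100780731-100850724, Stat5a at chr11:100859351-100885169 and Stat3 at chr11:100885098-100939540. Stat2 and Stat6 thus share chromosome 10, and Stat5b, Stat5a and Stat3 form a cluster on chromosome 11.

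The young library kept 4887 cells and the aged library 3404 cells after barcodes with 3000 or fewer, or 20000 or more, in-peak fragments were removed. They held 50065741 and 38655499 unique fragments, with a median of 9888 and 11019.5 per cell, and 59.8% and 55.0% of these were short, at 146 bp or less. The 26 barcodes that occurred in both libraries were 0.53% of young and 0.76% of aged cells. The promoters of 8 HSC markers had a median level of 20.0 fragments per 1000000 in-peak fragments (FPM) in young cells and 19.3 in aged cells, and 7 of them had at least 50 fragments. Mecom, the other, was at 0.52 and 0.54 FPM at its gene start. The median over 4 markers each was 0.72 and 0.44 FPM for T cells, 1.10 and 1.24 for mature myeloid cells, 2.81 and 2.87 for B cells, 9.90 and 9.14 for erythroid cells and 34.2 and 31.6 for megakaryocytes, and no marker was at 0. Among the markers with at least 50 fragments, Slamf1 at 0.43, Elane at 0.77 and Hbb-bt at 0.44 on the log2 scale were higher in aged HSCs, and those that were lower included Cd4 at -1.48, Mpo at -0.65 and Itga2b at -0.35. Their part in the results below was not tested.

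The 6 sequences shown here are from regions with large differences or with STAT palindromes. They were read from GRCm38, which is the mm10 assembly, on the plus strand, in windows of 300 bases about the middle of each open region, except for the last. Capitals mark matches to 9 short motifs searched on both strands. The STAT palindrome was TTCNNNGAA, the interferon-response element ISRE was GAAANNGAA, the CRE was TGACGTCA and the PU.1 site of myeloid enhancers was GAGGAAGT. For AP-1, the site bound by Fos and Jun proteins, the letters were TGANTCA. For RUNX, a family that HSCs depend on, they were TGTGGT. For factors of the GATA family they were AGATAA, for the homeobox factor MEIS they were TGACAG, and for the core of the insulator site of CTCF they were AGGGGGC.
The intron of Stat5b, 21.8 kb into the gene, with one of the lowest aged to young ratios, chr11:100828751-100829050: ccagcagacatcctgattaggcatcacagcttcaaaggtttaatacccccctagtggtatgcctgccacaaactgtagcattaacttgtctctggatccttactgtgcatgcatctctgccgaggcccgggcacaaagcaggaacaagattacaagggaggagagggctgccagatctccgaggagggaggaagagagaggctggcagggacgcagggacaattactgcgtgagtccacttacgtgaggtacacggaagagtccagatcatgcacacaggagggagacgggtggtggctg
The intergenic region 11.0 kb upstream of Stat6, also among the lowest, chr10:127631851-127632150: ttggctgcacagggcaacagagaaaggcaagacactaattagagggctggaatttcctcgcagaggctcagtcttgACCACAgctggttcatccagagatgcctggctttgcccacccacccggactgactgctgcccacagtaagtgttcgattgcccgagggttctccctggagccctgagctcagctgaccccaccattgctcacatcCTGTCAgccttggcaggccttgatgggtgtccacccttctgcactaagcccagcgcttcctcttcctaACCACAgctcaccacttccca
The intron of Jak1, 48.4 kb into the gene, the highest ratio among regions with at least 50 fragments, chr4:101216726-101217025: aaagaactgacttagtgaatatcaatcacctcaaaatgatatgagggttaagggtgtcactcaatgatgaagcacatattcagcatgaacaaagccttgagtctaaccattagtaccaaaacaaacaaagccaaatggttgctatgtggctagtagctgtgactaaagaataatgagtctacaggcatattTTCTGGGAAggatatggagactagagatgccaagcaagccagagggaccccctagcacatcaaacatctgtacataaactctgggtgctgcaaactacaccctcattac
The intron of Stat3, 23.1 kb into the gene, the next highest among these, chr11:100916291-100916590: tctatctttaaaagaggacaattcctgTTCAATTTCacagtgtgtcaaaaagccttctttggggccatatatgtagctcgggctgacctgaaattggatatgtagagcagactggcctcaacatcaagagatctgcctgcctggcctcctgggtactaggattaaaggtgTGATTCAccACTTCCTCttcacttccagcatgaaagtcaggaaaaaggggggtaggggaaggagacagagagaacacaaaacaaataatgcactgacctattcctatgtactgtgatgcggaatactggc
The intron of Lrp1, 38.2 kb upstream of Stat6, the most open region of the Stat6 locus over 1 kb from any annotated gene start, chr10:127604591-127604890: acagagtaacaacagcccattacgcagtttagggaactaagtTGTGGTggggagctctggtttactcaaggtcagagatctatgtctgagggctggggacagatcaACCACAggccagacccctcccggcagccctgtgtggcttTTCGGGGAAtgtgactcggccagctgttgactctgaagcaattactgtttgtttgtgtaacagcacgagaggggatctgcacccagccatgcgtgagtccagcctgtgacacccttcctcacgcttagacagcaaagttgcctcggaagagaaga
The 250 bases before the RefSeq start of Socs3 (GRCm38.p6, minus strand, written in the direction of transcription), the inhibitor with the largest difference among those with at least 50 fragments, chr11:117969367-117969616: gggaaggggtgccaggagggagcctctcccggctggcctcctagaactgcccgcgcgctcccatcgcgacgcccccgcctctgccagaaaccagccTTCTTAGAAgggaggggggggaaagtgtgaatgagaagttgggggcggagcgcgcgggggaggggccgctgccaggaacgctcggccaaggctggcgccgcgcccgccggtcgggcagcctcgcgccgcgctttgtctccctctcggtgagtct
The Jak1 intron and the Lrp1 intron each hold 1 STAT palindrome (TTCTGGGAA and TTCGGGGAA), and so does the Socs3 promoter (TTCTTAGAA). The Lrp1 intron also holds 2 RUNX matches and the Stat6 upstream region holds 2 RUNX and 1 MEIS matches. The Stat3 intron holds 1 ISRE, 1 AP-1 and 1 PU.1 match, while the Stat5b intron holds none of the 9 motifs. Not printed here are the 250 bases before the RefSeq start of the receptor gene Il7r, which also hold 1 STAT palindrome. The Il7r promoter was lower in aged HSCs, at -0.56 on the log2 scale.

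Promoter accessibility was counted within 1 kb of each annotated gene start. None of the 8 JAK and STAT promoters that reached 50 fragments over both libraries differed between young and aged HSCs by more than 0.32 on the log2 scale, which is called past the fold limit for genes here. Of 15978 promoters tested, 9.48% were past this limit higher and 3.99% lower in aged HSCs. Among the 12790 promoters with at least 500 fragments, which is closer to the depth of these 8, the shares were 4.16% and 1.06%. The median log2 ratio of aged over young was -0.048 over the 9 members and -0.054 over all promoters tested. Of the members, 2 were above 0 and 7 below, and 35.7% of all promoters tested were above 0. The member median and the 7 below include Stat4, which did not reach the 50 fragments that every promoter tested had.

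**Figure D1:**
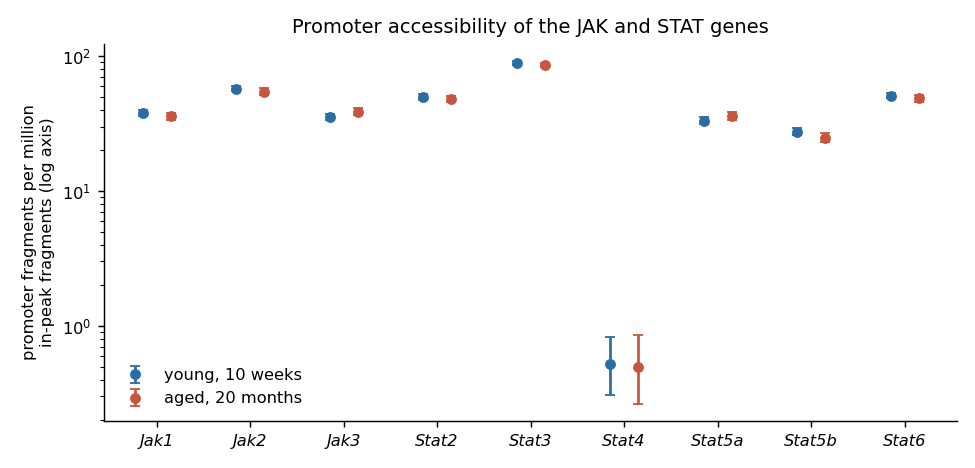
Fragments per 1000000 in-peak fragments within 1 kb of each gene start (log axis) in the young and the aged library, with exact Poisson 95% intervals. Stat3 stands highest at 88.4 and 85.7, Stat4 lowest at 0.52 and 0.50, and the points of the 2 ages lie close together for each gene.

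Among the kinases, Jak2, which serves the receptors for erythropoietin and the beta common cytokines, had the most open promoter, at 57.1 FPM (95% interval 54.6 to 59.7) in young and 54.5 FPM (51.7 to 57.4) in aged HSCs. The log2 ratio was -0.066 (-0.17 to 0.033), so its interval spans no difference. Jak1, which pairs with gp130, the interferon receptors and the common gamma cytokine receptors, had 37.7 FPM in young and 35.6 FPM in aged HSCs, a ratio of -0.080 (-0.20 to 0.041). Jak3, the partner of the common gamma chain Il2rg in lymphoid cells, had 35.3 FPM in young and 38.8 FPM in aged HSCs. Its ratio of 0.14 (0.014 to 0.26) was the highest of the 9 promoters, with a counting interval above 0. Of all promoters tested, 81.2% had a lower ratio. In cells with 3000 to 6000 in-peak fragments the Jak3 promoter was at -0.065 (-0.44 to 0.30). With 6000 to 10000 it was at 0.25 (0.056 to 0.43) and with 10000 to 20000 at 0.097 (-0.089 to 0.28). Scaled to all unique fragments the Jak3 promoter was at 0.10, a shift that takes the lower end of its interval over all cells below 0. The Jak3 difference sat in the short fragments, with a log2 ratio of 0.28 in the short and -0.14 in the longer fragments.

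Among the STATs, Stat3, which carries the signal of interleukin 6 family cytokines and of granulocyte colony-stimulating factor, had the most open promoter of the set at 88.4 FPM (85.3 to 91.6) in young and 85.7 FPM (82.2 to 89.3) in aged HSCs. It was above 98.8% of promoters in young and 99.1% in aged HSCs, and the ratio was -0.045 (-0.12 to 0.034). Stat6, which acts downstream of interleukin 4 and 13, stood at 50.9 and 48.6 FPM, a ratio of -0.066 (-0.17 to 0.038). Stat2, a part of the interferon-induced ISGF3 complex, stood at 49.5 and 47.9 FPM, a ratio of -0.048 (-0.15 to 0.058). The levels of Stat6 and Stat2 overlapped within each library.

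Stat5a and Stat5b, which lie head to head on chromosome 11 and encode closely similar proteins, had ratios of opposite sign. Stat5a had 33.2 FPM (31.3 to 35.1) in young and 36.0 FPM (33.8 to 38.4) in aged HSCs, a ratio of 0.12 (-0.0066 to 0.24). Stat5b had 27.5 FPM (25.8 to 29.3) in young and 24.8 FPM (22.9 to 26.8) in aged HSCs, a ratio of -0.15 (-0.30 to -0.0067). The Stat5b promoter therefore had the lowest ratio of the 9, and 18.7% of promoters tested were lower still. In short fragments the Stat5b promoter was at -0.27 and in longer fragments at -0.045, while Stat5a was at 0.041 and 0.25.

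The Stat5a value depended on where the promoter window was set. Within 500 bp of the gene start the ratio was 0.28 (0.10 to 0.46), and within 5 kb it was -0.015 (-0.11 to 0.074). The largest open region of the gene lay 1.06 kb downstream of the gene start, largely beyond the 1 kb window, and had 1379 young and 952 aged fragments, or 39.8 and 36.4 FPM, at a ratio of -0.13 (-0.25 to -0.0086). It holds annotated starts of Stat5a 0.994 and 1.13 kb downstream of the gene start. An annotated start 305 bp downstream of the gene start had the most fragments within 1 kb, 1923 and 1451, and a ratio of -0.00023. The higher aged level at the upstream start thus became smaller as the window took in this region. Stat5b kept its sign over these windows, with -0.17 (-0.35 to 0.0070) within 500 bp and -0.10 (-0.22 to 0.015) within 5 kb.

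Stat4, which transmits interleukin 12 and is best known from T and NK cells, was closed at its annotated gene start, where young HSCs had 18 fragments and aged HSCs 13, or 0.52 (0.31 to 0.82) and 0.50 (0.26 to 0.85) FPM. The gene was open instead at annotated starts further in. The start 21.5 kb downstream had 1157 young and 885 aged fragments, which is 33.4 and 33.8 FPM, a ratio of 0.020 (-0.11 to 0.15). This level was close to those of Jak3 and Stat5a at their gene starts in young HSCs. Of the other internal starts, that of Stat5b at 28.2 kb had 652 and 485 fragments, a ratio of -0.020 (-0.19 to 0.15). A start of Jak1 at 79.8 kb was weak, with 159 young and 87 aged fragments, and had a ratio of -0.46 (-0.86 to -0.078), while a start of Stat3 at 34.1 kb had 222 and 219 fragments and a ratio of 0.39 (0.11 to 0.66). Ratios of internal starts were not summarised over all genes, so these values are given without a background.

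**Figure D2:**
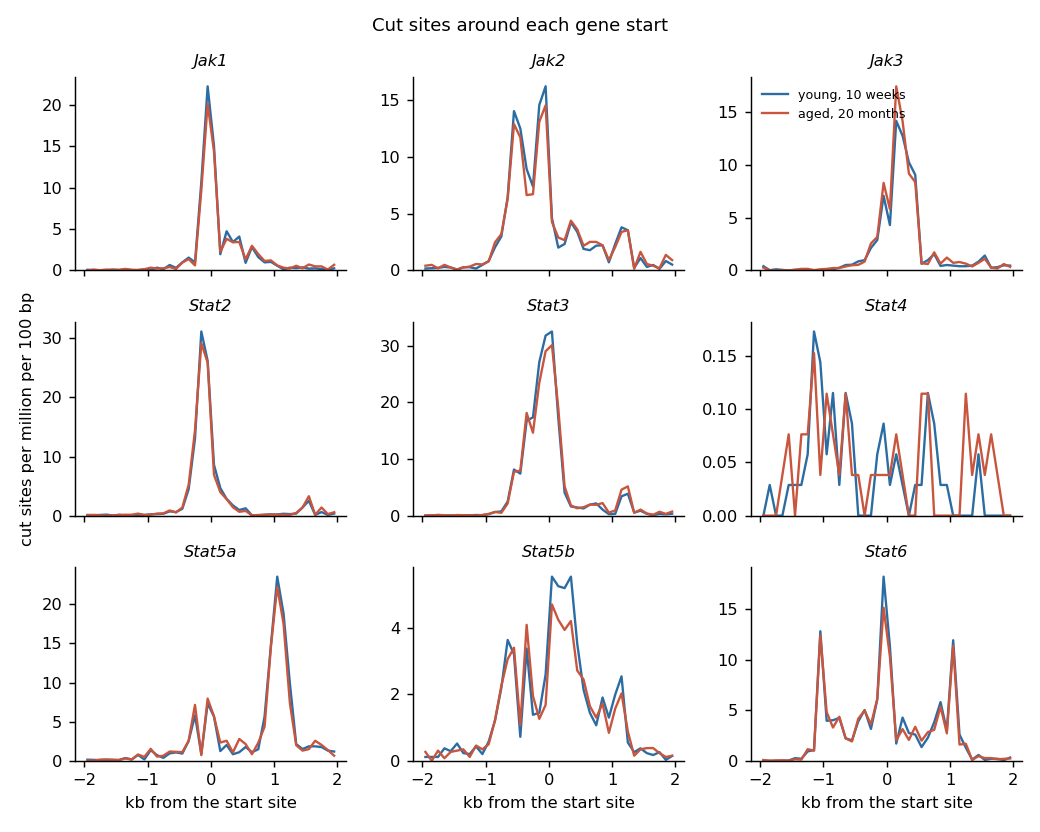
Transposase cut sites, scaled to the in-peak fragments of each library, in bins of 100 bp around each annotated gene start, against distance in kb (downstream to the right), with a separate y scale for each gene. Young and aged curves follow the same shape in the 8 open genes, the summit of Stat5a lies about 1.06 kb downstream, and Stat4 stays near 0.

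The order of promoter levels was nearly the same at both ages. In young HSCs it ran Stat3, Jak2, Stat6, Stat2, Jak1, Jak3, Stat5a, Stat5b and Stat4. In aged HSCs Jak3 and Stat5a stood before Jak1, but in both libraries the intervals of neighbours among these 3 overlapped, as did those of Stat6 and Stat2. Stat3, Jak2, Stat5b and Stat4 were set off from their neighbours by more than counting error at both ages.

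Over whole gene bodies, again no member was past the limit, against 9.18% of 18444 gene bodies higher and 3.23% lower in aged HSCs. The median ratio was 0.019 over the 9 members and -0.021 over all gene bodies tested. Per kb of gene, the bodies ranged in young HSCs from 1.198 FPM per kb for Jak2 to 2.98 for Jak3, and in aged HSCs from 1.17 for Stat2 to 3.14 for Jak3. On this scale Stat5b differed the most, from 1.71 in the young to 1.49 in the aged library.

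The Stat5b body was lower in aged HSCs, with 119.6 FPM (116.0 to 123.3) in young and 104.1 FPM (100.2 to 108.1) in aged cells. The ratio of -0.20 (-0.27 to -0.13) was the farthest from 0 of the 9, and 9.42% of gene bodies tested were lower. It was lower away from the promoter and away from open regions too. Without the promoter the ratio was -0.19 (-0.27 to -0.11), and outside open regions it was -0.16 (-0.27 to -0.042). Outside open regions Stat2, at -0.095 (-0.36 to 0.16), and Stat6, at -0.054 (-0.345 to 0.23), were also below the median of 0.042 over all genes, with intervals that spanned 0. On this measure Stat3 had 0.14, Stat4 0.15, Stat5a 0.19, Jak1 0.14, Jak2 0.086 and Jak3 0.18. Stat5b and its neighbours Stat5a and Stat3 thus lay on opposite sides of that median.

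Jak1, the longest of the kinase genes, was the one body with an interval above 0, at 281.3 FPM in young and 296.1 FPM in aged HSCs, a ratio of 0.074 (0.031 to 0.12). In cells with 3000 to 6000 in-peak fragments the Jak1 body was at 0.24 (0.11 to 0.36). With 6000 to 10000 it was at 0.055 (-0.014 to 0.12) and with 10000 to 20000 at 0.025 (-0.0395 to 0.090), so both intervals spanned 0. Scaled to all unique fragments, the Jak1 body was at 0.042, a shift that takes the lower end of its interval over all cells just below 0. Jak2 had 73.4 and 77.4 FPM, a ratio of 0.077 (-0.0086 to 0.16), and Jak3 42.5 and 44.9 FPM, a ratio of 0.077 (-0.036 to 0.19). All 3 were above 0, as were 44.6% of gene bodies tested. In cells with 3000 to 6000 in-peak fragments Jak2 was at -0.049 (-0.32 to 0.21) and Jak3 at -0.19 (-0.54 to 0.16), and without its promoter the Jak3 body was at -0.073 (-0.28 to 0.13). Stat3 with 0.019 (-0.039 to 0.078), Stat4 with 0.033 (-0.026 to 0.092), Stat5a with -0.0049 (-0.093 to 0.083), Stat6 with -0.055 (-0.17 to 0.055) and Stat2 with -0.10 (-0.24 to 0.042) had intervals that spanned 0.

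**Figure D3:**
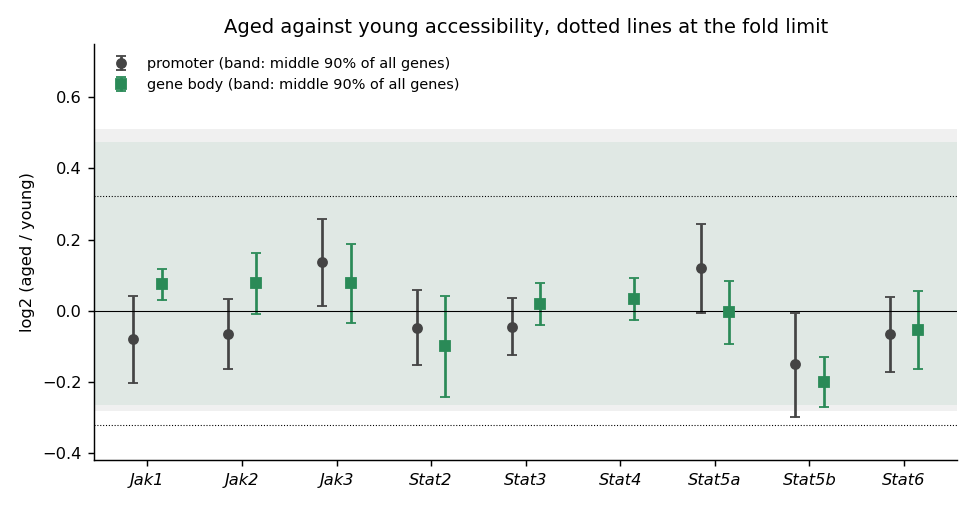
The log2 ratio of aged over young accessibility at the promoter (circles) and over the gene body (squares) of each gene, with 95% counting intervals, shaded bands for the middle 90% of all genes and dotted lines at the fold limit, 0.32 in either direction. Every point lies between the dotted lines, Stat5b is lowest on both measures at -0.15 and -0.20, and the Stat4 promoter is left out because it had 31 fragments.

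Cells were also divided by depth, since aged cells were deeper. The Stat5b body was lower in aged HSCs in each class, at -0.092 (-0.30 to 0.12) in cells with 3000 to 6000 in-peak fragments, -0.26 (-0.38 to -0.15) with 6000 to 10000 and -0.20 (-0.30 to -0.092) with 10000 to 20000. The sign of the Stat5b promoter differed between classes, with 0.27 (-0.20 to 0.74) in the shallowest class and -0.29 (-0.53 to -0.068) and -0.082 (-0.30 to 0.14) in the others. The Jak2 promoter was past the limit in the shallowest class, where 222 young and 109 aged fragments, or 55.1 and 36.6 FPM, gave -0.58 (-0.93 to -0.25). In that class 13.6% of promoters tested were past the limit on the lower side. In the deeper classes Jak2 was at -0.073 (-0.23 to 0.080) and 0.022 (-0.12 to 0.17). The shallowest class held 995 young and 776 aged cells.

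The share of single cells with a fragment at each promoter was compared after each cell was thinned to 4000 fragments, which left 4836 young and 3351 aged cells. Stat3 was cut in 22.8% of young (exact binomial 95% interval 21.6 to 24.0) and 20.7% of aged cells (19.3 to 22.1), and Stat6 in 13.7% (12.7 to 14.7) and 11.8% (10.7 to 13.0). Jak2 was cut in 14.2% and 13.0%, Jak1 in 10.05% and 9.34%, Jak3 in 9.62% and 9.37%, and Stat5b in 7.03% and 6.51%. These 6 shares were lower in aged cells, with intervals that overlapped, which does not by itself place a difference within counting error. The differences were largest at Stat3, -2.1 percentage points, and at Stat6, -1.8, and were not given intervals of their own. Stat2 at 12.7% and 13.0% and Stat5a at 8.64% and 9.16% were higher in aged cells, again with intervals that overlapped. Stat4 was cut in 9 young and 4 aged cells, or 0.19% and 0.12%, while the median over 1135 olfactory receptor promoters, which HSCs do not use, was 0.021% and 0.030%. Before thinning, the Stat3 share was 45.5% and 46.5%, Jak3 21.4% and 24.6%, Stat5a 20.2% and 23.3%, Stat6 29.4% and 29.96%, and Stat5b 17.0% and 16.6%, so that Stat3, Stat6 and Jak3 were then higher in the deeper aged cells. A thinned cell had a fragment at a mean of 0.99 of the 9 promoters in young and 0.93 in aged HSCs, and 35.6% and 38.4% of cells had none. At this depth 6.84% of young and 5.76% of aged cells had a fragment at 3 or more of them. Of the thinned fragments, 69.57% in young and 67.93% in aged cells lay in open regions. Shares of cells were not computed over all promoters, so none of these differences has that background.

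The surroundings were read in bins of 500 bp over 50 kb on either side of each gene. Stat3, Stat5a and Stat5b share part of their flanks and each bin was counted once, which gave 1651 bins, of which 374 had at least 50 fragments. Of these, 21 were past 1.5-fold higher in aged HSCs (5.61%, where 10.3% of 197894 bins around all genes were) and 20 lower (5.35%, where 5.1% were). With the ratios centred on the median promoter, 30 of the same 374 were higher and 17 lower. The shares over all bins after centring are not given here. The median was -0.024 over the bins of the JAK and STAT loci and 0.034 over all. The whole flanks of Stat2 were lower in aged HSCs, with 347.9 FPM in young and 310.2 FPM in aged cells, a ratio of -0.17 (-0.21 to -0.12), and those of Jak1 were higher, with 116.1 and 131.0 FPM, a ratio of 0.17 (0.11 to 0.24). These 2 loci had no bin past the fold in the opposite direction, with 3 lower of 33 tested bins at Stat2 and 4 higher of 17 at Jak1. The same held at Stat4, with 4 higher and 0 lower bins, and at Jak2, with 0 higher and 1 lower. Whole-flank ratios have no background over all genes here. The flanks of Stat5b were at -0.079 (-0.12 to -0.040) with 2 higher and 7 lower bins, while those of Stat4, Stat3, Stat5a, Stat6, Jak2 and Jak3 lay between -0.059 and 0.048.

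Of the 5 lowest bins, the 4 above the lowest lay at Stat2, Jak3, Stat3 and Stat6. A bin in the Timeless gene 32.8 kb upstream of Stat2 had 71 young and 21 aged fragments, a log2 ratio of -1.31. An intergenic bin beyond Jak3, nearest to the start of Fcho1, had 42 and 11 fragments (-1.44), the bin at the 3′ end of Stat3 had 149 and 44 (-1.33), and a bin in Lrp1 upstream of Stat6 had 51 and 15 (-1.295). Of the 5 highest bins 3 are given here, without the highest. In introns of Stat3, 2 bins had 16 and 35 (1.49) and 20 and 33 fragments (1.10), and a bin in Lrp1 had 26 and 41 (1.04). The bin at the 3′ end of Stat3 had the most fragments of those named here.

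Open regions, called from the cut sites of both libraries, numbered 235 in the genes and flanks, of which 202 had at least 50 fragments. In aged HSCs 9 were past 1.5-fold higher (4.46%, where 13.2% of 128429 regions genome-wide were) and 12 lower (5.94%, where 6.47% were). Their median ratio was -0.057, against 0.013 over all regions tested.

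Of the 5 open regions with the lowest ratios, the 4 above the lowest are given here. The region in the Stat5b intron had 94 and 24 fragments, a ratio of -1.52 (-2.28 to -0.90), and was low inside a gene that was lower as a whole. A region at the 3′ end of Jak3, in exons shared with the overlapping Insl3 gene (chr8:71690156-71690375), had 101 and 28 fragments, a ratio of -1.41 (-2.10 to -0.83). One in an annotated exon near the 3′ end of Stat3 (chr11:100888426-100888715) had 112 and 33 fragments, a ratio of -1.33 (-1.96 to -0.79). The region upstream of Stat6 had 110 and 43 fragments, a ratio of -0.93 (-1.49 to -0.43). In cells with 3000 to 6000 in-peak fragments the Stat6 region was at -0.023 and the Stat5b intron at -0.56, both within 1.5-fold and on fewer fragments than in all cells. In fragments over 146 bp the Stat5b intron was at -0.77 and the Jak3 region at -0.65. These 4 were small next to the promoters, with no more than 3.23 FPM in young HSCs.

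The highest of the regions with at least 50 fragments was the STAT palindrome region in the Jak1 intron, where young HSCs had 17 fragments and aged HSCs 38, a ratio of 1.52 (0.71 to 2.48). The Stat3 intron had 21 and 34 fragments, a ratio of 1.08 (0.27 to 1.96). A region in the intron 475 bp after the Stat5a gene start (chr11:100859766-100859885) had 40 and 60 fragments, a ratio of 0.98 (0.39 to 1.61). One in the Nemp1 gene, 40.2 kb from the Stat6 start (chr10:127683016-127683275), had 32 and 48 fragments, also a ratio of 0.98 (0.32 to 1.68). One 41.1 kb upstream of Jak1 (chr4:101306176-101306555) had 57 and 76 fragments, a ratio of 0.81 (0.31 to 1.34). These 5 had at most 2.91 FPM in aged HSCs. The Stat3 intron was at 0.56 after thinning to 4000 fragments per cell, and the region upstream of Jak1 at 0.35 in cells with 6000 to 10000 in-peak fragments, both within 1.5-fold and both on fewer fragments.

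**Figure D4:**
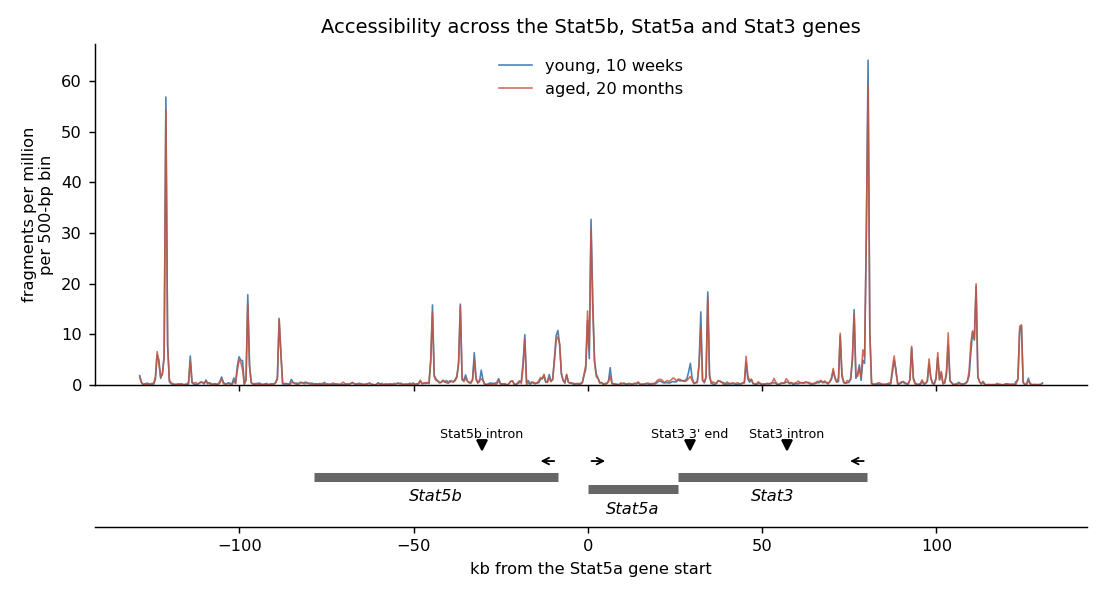
Fragments per 1000000 in-peak fragments per 500-bp bin in the young and aged libraries, against distance in kb from the Stat5a gene start. Bars show Stat5b, Stat5a and Stat3 with arrows for the direction of transcription, and triangles the 3 named regions. The tall peaks are alike at both ages, and the Stat5b intron region and the region at the 3′ end of Stat3 are small peaks that are lower in the aged library.

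The main region of each gene was taken as the most open one with its centre over 1 kb from any annotated gene start. Stat3, Stat5a and Stat5b share theirs, the region 1.06 kb downstream of the Stat5a start described above, at a ratio of -0.13. That region holds internal annotated starts of Stat5a, so it is also a promoter region of that gene. The region in the Lrp1 intron upstream of Stat6, printed above with its STAT palindrome, had 934 and 614 fragments, or 27.0 and 23.5 FPM, a ratio of -0.20 (-0.35 to -0.051). The main region of Jak3, 10.7 kb upstream in Unc13a, had 48.8 and 45.4 FPM, a ratio of -0.10 (-0.21 to 0.0035), and that of Jak2, in Plgrkt, had 19.4 and 18.0 FPM, a ratio of -0.11 (-0.28 to 0.065). For Jak1 the main region lay 27.1 kb upstream at 22.5 and 24.1 FPM, a ratio of 0.098 (-0.056 to 0.25). For Stat2 it lay 11.4 kb upstream at 13.9 and 11.2 FPM, a ratio of -0.31 (-0.52 to -0.095), and so was lower like the rest of the Stat2 flanks. For Stat4 it was the internal start at 31.2 and 30.4 FPM, a ratio of -0.038 (-0.17 to 0.095).

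Motifs were sought only in the 300 bases about the middle of each open region, so longer regions were not searched to their ends. STAT palindromes were found in 18 of the 202 tested regions of these loci, or 8.91%, and in 9.0% of all tested regions of the genome. The median ratio of the 18 was -0.087, and of all regions with the palindrome 0.049. Of the 18, 1 was past 1.5-fold higher, the Jak1 intron, and 0 lower, against 13.2% and 6.47% of all tested regions. The 250 bases before RefSeq starts of the 9 genes, 12 promoters in all, held no STAT palindrome, where 7.04% of 32585 promoters did. The ISRE motif was in 12.4% of the tested regions of these loci and 11.7% of all, AP-1 in 12.9% and 11.8%, RUNX in 19.8% and 27.4%, MEIS in 23.8% and 20.4%, GATA in 9.9% and 13.2%, PU.1 in 5.45% and 7.54% and CTCF in 9.41% and 8.97%. CRE was in 1 region. A match describes the letters only.

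The rest of the pathway was counted in the same way, and is read against the 9.48% of all tested promoters that were past the limit of 0.32 higher and the 3.99% that were lower. Of 25 receptor genes 24 were tested, with 2 past the limit higher, 3 lower, and a median of -0.061. Osmr, the oncostatin M receptor that signals through Jak1 and Stat3, had 8.14 FPM in young and 14.5 FPM in aged HSCs, a ratio of 0.83 (0.61 to 1.06), and its gene body was at 0.61. Lepr, the leptin receptor that acts through Jak2 and Stat3, had 4.10 and 7.07 FPM, a ratio of 0.79 (0.46 to 1.11), with a gene body at 0.72. Csf2rb, the beta chain shared by the receptors for interleukin 3, interleukin 5 and GM-CSF, was the lowest, with 21.6 FPM in young and 14.1 FPM in aged HSCs, a ratio of -0.61 (-0.80 to -0.43) and a gene body at -0.36. Its partners Il3ra at -0.16 (-0.26 to -0.060) and Csf2ra at -0.13 (-0.27 to 0.013) were within the limit. Il21r had 5.51 and 3.79 FPM, a ratio of -0.54 (-0.91 to -0.18), and Il7r, the receptor chain of interleukin 7, 2.28 and 1.53 FPM, a ratio of -0.56 (-1.16 to -0.0097) with a gene body at 0.19. Among the others, gp130 (Il6st) was at 0.041 (-0.084 to 0.17) and Ifnar1 at -0.044 (-0.14 to 0.056).

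The tested inhibitors and the 13 target genes below all had at least 500 fragments. At that depth 4.16% of promoters were past the limit higher and 1.06% lower. Of 20 inhibitors 18 were tested, with 1 past the limit higher and 0 lower, against the same 9.48% and 3.99% of all promoters, and a median of -0.055. The 1 was Socs3, which binds gp130 and Jak kinases and is induced by Stat3, with 44.4 FPM (42.2 to 46.6) in young and 60.2 FPM in aged HSCs, a ratio of 0.44 (0.34 to 0.54) and a gene body at 0.40. Its promoter is the one printed above, before a RefSeq start that lies 681 bp downstream of the GENCODE gene start. Socs2, a target of Stat5, was at -0.22 (-0.32 to -0.12), Cish at 0.13 (0.011 to 0.25), Socs1 at -0.031 (-0.11 to 0.051) and the Jak2 adaptor Sh2b3 at -0.13 (-0.23 to -0.038), all within the limit. None of 13 target genes was past it, with a median of -0.053, a highest ratio of 0.19 (0.062 to 0.31) at Cebpd and a lowest of -0.17 (-0.37 to 0.018) at Osm. Pim1 was at -0.053, Myc at -0.052, Bcl2l1 at -0.084 and Ccnd2 at -0.14. Tyk2, at -0.26 (-0.38 to -0.14), was within it on the lower side.

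**Figure D5:**
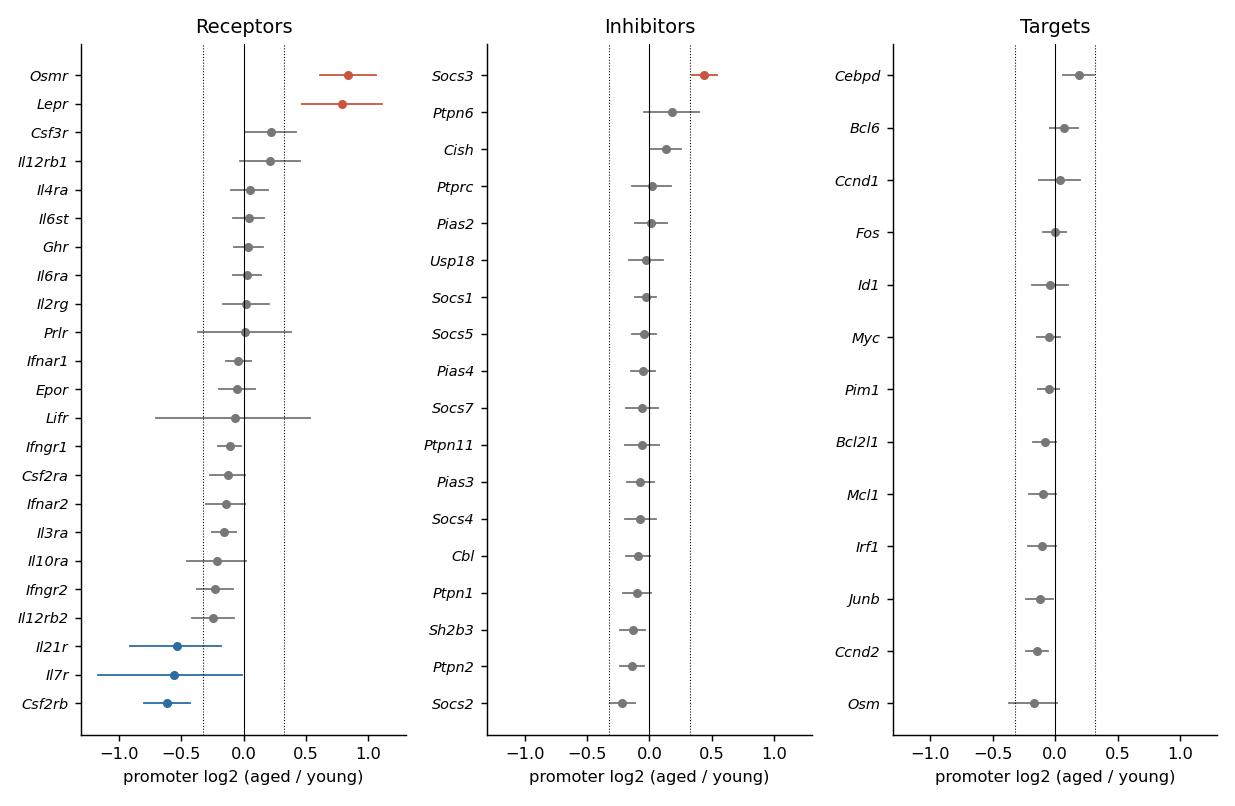
The log2 ratio of aged over young promoter accessibility with 95% counting intervals for receptors, inhibitors and target genes with at least 50 fragments, without 1 receptor that is not shown, sorted within each list, with dotted lines at 0.32 in either direction. Osmr, Lepr and Socs3 lie past the line on the higher side and Csf2rb, Il7r and Il21r on the lower side.

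The genes nearest to Stat5b, which had the largest promoter ratio in size, were sought among 15847 genes by their distance in promoter level, promoter ratio and gene body ratio, each divided by its SD over genes. Nothing follows from this about shared function. They were Ech1 with a promoter ratio of -0.15 and a body ratio of -0.20, Tjap1 with -0.16 and -0.19, and Lrr1 with -0.14 and -0.20.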

How the data were processed

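Single-cell ATAC-seq libraries of sorted HSCs, 1 young and 1 aged, were grouped by the sample labels. The authors aligned reads to mm10 with Cell Ranger ATAC, which removes duplicates and shifts fragment ends for the transposase offset, and deposited for each library a list of unique fragments and a table of counts per barcode, with no normalization (Signac is also named in the submitters' processing notes). The release of the program was not settled from the sources used here. From the authors' counts, called cells were kept if their in-peak fragments lay above 3000 and below 20000 (5028 to 4887 young, 3694 to 3404 aged). Without the cell call, 5010 and 3535 barcodes lay within these limits. Barcodes that looked like multiplets (213 and 229, from loci with at least 3 fragments) were kept, and were left out in an alternative.

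A fragment counted once in a region that held at least 1 of its ends. Regions were gene starts of GENCODE M21 with 1 kb on either side, gene bodies, 500-bp bins over 50 kb flanks, and open regions called on the cut sites of each library (Poisson in 151-bp windows against the genome or 10000 bp around, q under 0.001) and merged to 165673. Values were scaled to the 34648847 young and 26152927 aged fragments in these regions. The log2 ratio used a pseudocount of 1 fragment, its interval came from the exact binomial interval of the aged share, and levels have exact Poisson intervals, all at 95%. Unique fragments of 1 library are not independent animals, and intervals cover counting error only. Past 1.25-fold (genes) or 1.5-fold (bins and open regions) with at least 50 fragments is a description and not a test. Fragment lists were reread with Python 3.11.15, numpy 2.4.6, pandas 2.3.3, scipy 1.17.1 and numba 0.67.0, and counting was tested on simulated data.

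The 9 genes, the pathway and marker lists and the fold limits were chosen with earlier results of these data known. Named by rule were the 9 genes, pathway genes past 1.25-fold, the 5 highest and 5 lowest bins and open regions, the open region of each gene with the most fragments and its centre over 1 kb from any annotated gene start (internal transcript starts were not left out), and the 3 genes most like Stat5b. Other pathway genes and markers named were chosen after their values were seen, as were internal starts, depth classes of single genes, the motif list and the background over promoters with at least 500 fragments. Promoter sequences of all 9 genes were in the RefSeq table (GRCm38.p6). The cell limits and depth classes rest on the authors' in-peak counts per barcode, and so on their peak calls. Apart from this, the study's own peak calls and lists of regions were not used here. Some genes and 1 open region that fall under these rules are not reported here.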

Additional observations from a re-analysis of the deposited data

How the results depend on the processing

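No member was past the fold limit at the promoter or over the gene body under any setting tried except in cells with 3000 to 6000 in-peak fragments, where 1 promoter was (Jak2). The median promoter ratio of -0.048 became -0.081 when scaled to all unique fragments, -0.14 in fragments over 146 bp and -0.082 in cells with 10000 to 20000 in-peak fragments, and it was above 0 in cells with 3000 to 6000 in-peak fragments (0.021), in fragments up to 146 bp (0.0045) and when centred on the median promoter (0.0059). The median gene body ratio of 0.019 became 0.14 outside open regions. The Stat5b gene body was lower in aged HSCs in all 15 alternatives (-0.27 to -0.092), and its promoter ranged from -0.29 to 0.27. Of 135 promoter values 12 lay outside the counting interval of the main setting, of 135 gene body values 21 and of 120 open region values 7. The counting error of the alternative values themselves was left out of this comparison. A value outside the main interval therefore need not differ from the main value by more than counting error.

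Counts past 1.5-fold varied with the setting. Flank bins higher in aged HSCs (21) numbered 8 in fragments up to 146 bp, 6 in longer ones, 30 when centred on the median promoter, 6 after thinning, 4, 9 and 8 in cells from the shallowest to the deepest class, 49 with cut sites counted, and 98 or 7 with at least 20 or 100 fragments. Bins lower in aged HSCs (20) numbered 17 when centred, 12 in fragments over 146 bp, 12 after thinning, 5, 10 and 9 by depth class, 37 with cut sites, and 64 or 8 with at least 20 or 100 fragments. Open regions past the fold (21) numbered 13 in fragments over 146 bp, 9 and 11 in the first depth classes, 34 with cut sites, and 32 or 10 with at least 20 or 100 fragments. Of these the higher ones (9) numbered 12 when centred, 4, 3 and 5 by depth class and 15 or 3 with at least 20 or 100 fragments, and the lower ones (12) numbered 6 in fragments over 146 bp, 5 in the shallowest class, 21 with cut sites and 7 with at least 100 fragments. Bins tested numbered 374 in the main setting and when centred, 209 in fragments up to 146 bp and 273 in longer ones. They numbered 201 after thinning, 95, 222 and 220 by depth class and 480 with cut sites. Open regions tested numbered 202 in the main setting, 162 in fragments over 146 bp, 87, 168 and 169 by depth class and 215 with cut sites. With at least 20 or 100 fragments 723 or 236 bins and 233 or 174 regions were tested. Shares over all bins and regions under these settings are not given here, so the changed counts have no background. The median difference in the share of cells cut at a promoter, -0.53 percentage points after thinning, was 0.60 without it, when aged cells were deeper.

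No paired analysis was possible because each age had 1 library. Leaving out a replicate was not run for the same reason.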
